A study of Mus musculus with 12 samples.

Results

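Eph receptors and their ligands, the ephrins, were followed in mouse colonic organoids as a family of 10 genes: the receptor genes Ephb2, Ephb3, Ephb4, Ephb6, Epha1, Epha2 and Epha4 and the ephrin genes Efnb1, Efnb2 and Efna1. The 10 genes were taken by name, through their Ensembl identifiers, from the 48795 genes of the deposited table, and all 10 passed the filter on low values. The organoids were epithelial structures grown in Matrigel from colon crypts of C57BL/6 mice that were either wild type (WT) or carried the label AhR deficient, here called KO. The aryl hydrocarbon receptor (AhR) senses small molecules of dietary, microbial or environmental origin and acts as a transcription factor. In the stem condition the organoids of both genotypes were kept in WENR medium, that is, with EGF, Noggin, R-spondin-1 and added Wnt-3A. In the differentiated condition they had spent 3 days in ENR medium, without Wnt-3A. Total RNA was sequenced from 3 libraries in each of the 4 groups, WT stem, KO stem, WT differentiated and KO differentiated. The labels number the libraries but do not say that they came from separate mice or cultures, so p-values measure the spread between these libraries, which may be technical.

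Eph receptors are receptor tyrosine kinases that bind ephrins on the surface of neighbouring cells, and both partners can signal into their own cell, so that contact between the cells leads to repulsion, adhesion or sorting. The A class of ephrins is held in the membrane by a lipid anchor, while the B class crosses it. In the intestine the EphB2 and EphB3 receptors are known as Wnt target genes of the crypt base, and the B ephrins are found towards the crypt top and the differentiated cells, an opposition that keeps cell types in place along the crypt axis.

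The promoters of 4 of the genes are shown because they stand for the different responses described in the next paragraphs: Ephb2, the receptor best known from the crypt base, Ephb6, the member with the largest response to the culture condition, Efnb1, the member that differed between genotypes in both conditions, and Efnb2, the member whose response differed between genotypes. Each line holds the 250 bases before the RefSeq transcription start on the strand of the gene, 5′ to 3′, in the GRCm38.p6 build. Capitals mark GCGTG, the core of the xenobiotic response element to which AhR binds, or its reverse complement CACGC.
Ephb2, chr4:136836013-136836262, minus strand: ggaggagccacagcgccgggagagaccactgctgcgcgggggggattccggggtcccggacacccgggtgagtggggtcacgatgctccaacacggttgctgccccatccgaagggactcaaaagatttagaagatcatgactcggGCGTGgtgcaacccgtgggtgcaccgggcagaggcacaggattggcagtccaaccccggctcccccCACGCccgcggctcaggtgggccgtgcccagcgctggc
Ephb6, chr6:41605261-41605510, plus strand: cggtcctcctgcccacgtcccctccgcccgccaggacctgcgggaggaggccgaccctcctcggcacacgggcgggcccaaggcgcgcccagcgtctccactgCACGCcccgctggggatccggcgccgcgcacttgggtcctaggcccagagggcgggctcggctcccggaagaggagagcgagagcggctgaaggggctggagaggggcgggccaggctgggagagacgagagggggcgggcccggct
Efnb1, chrX:99135811-99136060, plus strand: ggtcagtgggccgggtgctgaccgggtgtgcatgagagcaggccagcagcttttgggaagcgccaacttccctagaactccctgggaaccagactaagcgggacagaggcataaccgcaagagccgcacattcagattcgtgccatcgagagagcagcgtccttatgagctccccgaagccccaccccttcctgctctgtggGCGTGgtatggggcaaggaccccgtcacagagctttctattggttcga
Efnb2, chr8:8661243-8661492, minus strand: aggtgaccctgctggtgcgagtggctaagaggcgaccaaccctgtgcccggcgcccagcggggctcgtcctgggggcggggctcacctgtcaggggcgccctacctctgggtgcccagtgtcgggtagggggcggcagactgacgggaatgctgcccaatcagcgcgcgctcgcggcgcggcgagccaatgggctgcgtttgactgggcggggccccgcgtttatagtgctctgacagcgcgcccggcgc

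All 10 genes had a RefSeq promoter window of 300 bases (250 before to 50 after the start), and Efna1 had 2. GCGTG, searched on both strands, was present in the windows of 6 of the 10 genes (Ephb2, Ephb3, Ephb6, Epha2, Efnb1 and Efna1) and in 32.4% of all 32851 promoter windows of the same length. Ephb2 held it at -104 to -100 and, on the other strand, at -38 to -34, counted from the transcription start, and Efnb1 held it at -48 to -44. The windows of Ephb4, Epha1, Epha4 and Efnb2 did not contain these letters. Of the motifs of the TCF/LEF factors, which act at the end of the Wnt pathway, CTTTGAT was in none of the members' windows and in 3.73% of all windows, and CTTTGAA was in the Epha2 window alone, at -209 to -203, and in 5.14% of all windows. No match overlapped another. The members' windows had a GC content of 54.7% to 76.3%, against a median of 52.7% over all windows, and Ephb6 stood highest of the members, at the 97.3rd percentile of all windows. These matches are a description of letters in short windows and were not tested as binding sites.

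The table held normalized counts, that is, reads per gene divided by a factor that puts libraries of different depth on a common scale. The reads behind them, which could be recovered exactly, came to between 25.1 M and 99.0 M per library, and the members rested on 138 to 53838 reads each. Changes are given as differences of log2(normalized count + 1) with their standard error (SE), tested by limma over the 14856 genes that passed the filter, and a gene passed where its p, adjusted by Benjamini and Hochberg, was under 0.05.

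The labels were checked before the members. Cyp1b1, a direct AhR target gene, stood at 7479 to 8502 normalized counts in WT stem and 269 to 571 in KO stem, and at 574 to 680 in WT differentiated and 13.0 to 20.6 in KO differentiated. Ahr itself was higher in the libraries labelled KO, with means of 2675 against 1806 in the stem condition and 3430 against 2208 in the differentiated condition. The allele is not given in the labels, and counts summed over all exons say nothing of a deletion within the gene, so Ahr does not check these labels. The 6 epithelial markers summed to 447683 or more in every library, while the T cell marker Cd3e and the endothelial marker Emcn were at 0 in all 12. The macrophage marker Cd68 was detected throughout, at 1617 to 3301 normalized counts in WT stem, 4385 to 4551 in KO stem, 566 to 739 in WT differentiated and 584 to 1198 in KO differentiated, so that the stem genotypes did not overlap, whereas Ptprc, found on all white blood cells, was at 5.97 or less. The part of Cd68 in the members' differences was not tested. WT stem library 1 stood apart: 12 fibroblast and muscle markers summed to 22290 there, led by Vim at 13196, against at most 642 in the other 11 libraries, although Lum was at 0 in all 12. The Y-linked genes Ddx3y (27.7) and Eif2s3y (21.2) were detected in that library alone, and Xist was at 3574 or more in all 12. These 3 genes were chosen after their values were seen. For the main results that rest on WT stem library 1, values without it are also given.

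Among the EphB receptors, Ephb6 changed most between the conditions and Ephb2 least. Ephb2 (ENSMUSG00000028664, chr4:136647539-136835988, GRCm38) encodes the receptor of the crypt base that binds B ephrins. It stood at 15647, 23394 and 22620 normalized counts in WT stem, 18072, 20574 and 20448 in KO stem, 26147, 25141 and 23184 in WT differentiated, and 23389, 23717 and 23229 in KO differentiated. The lowest library was WT stem 1, the library with the fibroblast transcripts, and the WT groups overlapped. In KO every differentiated library lay above every stem library. The change from stem to differentiated was 0.29 ± 0.13 in WT (adjusted p = 0.0564) and 0.25 ± 0.13 in KO (adjusted p = 0.0975), with 95% intervals of 0.01 to 0.57 and -0.03 to 0.53, and neither passed the test. In a limma fit of only the groups compared, the KO change passed (adjusted p = 0.0109) and the WT change did not (adjusted p = 0.129). Without WT stem library 1 the Ephb2 change in WT was 0.11 (adjusted p = 0.183), and the unchanged difference of 0.25 in KO then passed (adjusted p = 0.00359), since that library also enters the common estimate of the spread. Between genotypes Ephb2 differed by -0.04 ± 0.13 in the stem condition (95% interval -0.32 to 0.24) and by -0.08 ± 0.13 in the differentiated condition (-0.36 to 0.20). The stem difference of Ephb2 was -0.23 without WT stem library 1 (adjusted p = 0.0657).

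Ephb3 (ENSMUSG00000005958, chr16:21204755-21223305) encodes the second EphB receptor of the crypt base. Its levels were 3049, 2515 and 2594 in WT stem, 3401, 2918 and 3064 in KO stem, 4429, 4097 and 3621 in WT differentiated, and 5132, 4668 and 4793 in KO differentiated. Each differentiated group lay wholly above the stem group of its genotype. Ephb3 rose by 0.57 ± 0.09 in WT (1.49-fold, adjusted p = 1.76e-04) and by 0.64 ± 0.09 in KO (1.56-fold, adjusted p = 9.28e-05). All 3 KO differentiated libraries lay above the 3 WT differentiated libraries, by 0.27 ± 0.09, which missed the threshold in limma (adjusted p = 0.0541) and passed it in edgeR (0.29, adjusted p = 0.0409) and DESeq2 (0.26, adjusted p = 0.0366) on the recovered reads. Without WT stem library 1 it also passed in limma (adjusted p = 0.0227).

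Ephb4 (ENSMUSG00000029710, chr5:137350109-137378669) encodes the receptor that binds ephrin-B2, best known from blood vessels. It stood at 3967, 3415 and 2629 in WT stem, 3094, 2411 and 2854 in KO stem, 6202, 5937 and 5635 in WT differentiated, and 8434, 6665 and 7084 in KO differentiated. The stem groups overlapped, and the KO differentiated libraries were the highest of the 4 groups. Ephb4 rose by 0.85 ± 0.14 in WT (1.78-fold, adjusted p = 2.21e-04) and by 1.41 ± 0.14 in KO (2.65-fold, adjusted p = 4.81e-06). The difference between these responses was 0.56 ± 0.20 and did not pass in limma (adjusted p = 0.103), but did in DESeq2 (0.58, adjusted p = 0.0404) and in limma with the replicate block (adjusted p = 0.0367) or the block within genotype (adjusted p = 0.0387). The exons of Ephb4 overlap those of Zan on the other strand, which had a mean of 66.0. The endothelial marker list summed to 3.05 to 29.5 normalized counts over the 12 libraries.

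Ephb6 (ENSMUSG00000029869, chr6:41605482-41620509) encodes a receptor whose kinase domain lacks catalytic activity. It was low in the stem condition, at 225, 173 and 214 in WT and 316, 296 and 249 in KO, and high in the differentiated condition, at 2432, 2415 and 2008 in WT and 2527, 2500 and 2146 in KO. Its promoter, printed among the sequences, was the richest in GC of the members. Ephb6 rose 11.2-fold in WT (3.48 ± 0.13, adjusted p = 1.37e-09) and 8.33-fold in KO (3.06 ± 0.13, adjusted p = 6.44e-09), the largest rises of the 10 genes in both genotypes. In the stem condition it was 1.41-fold higher in KO (0.49 ± 0.13, adjusted p = 0.0444), without overlap between the groups. That call was lost on leaving out any of WT stem 2 or 3, KO stem 1 or 2, WT differentiated 1 or 2, or KO differentiated 2 or 3, with adjusted p up to 0.163. It was also lost with no filter (adjusted p = 0.0632) and with only the groups compared (adjusted p = 0.167). In the differentiated condition the genotypes overlapped (0.07 ± 0.13, adjusted p = 0.731).

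**Figure D1:**
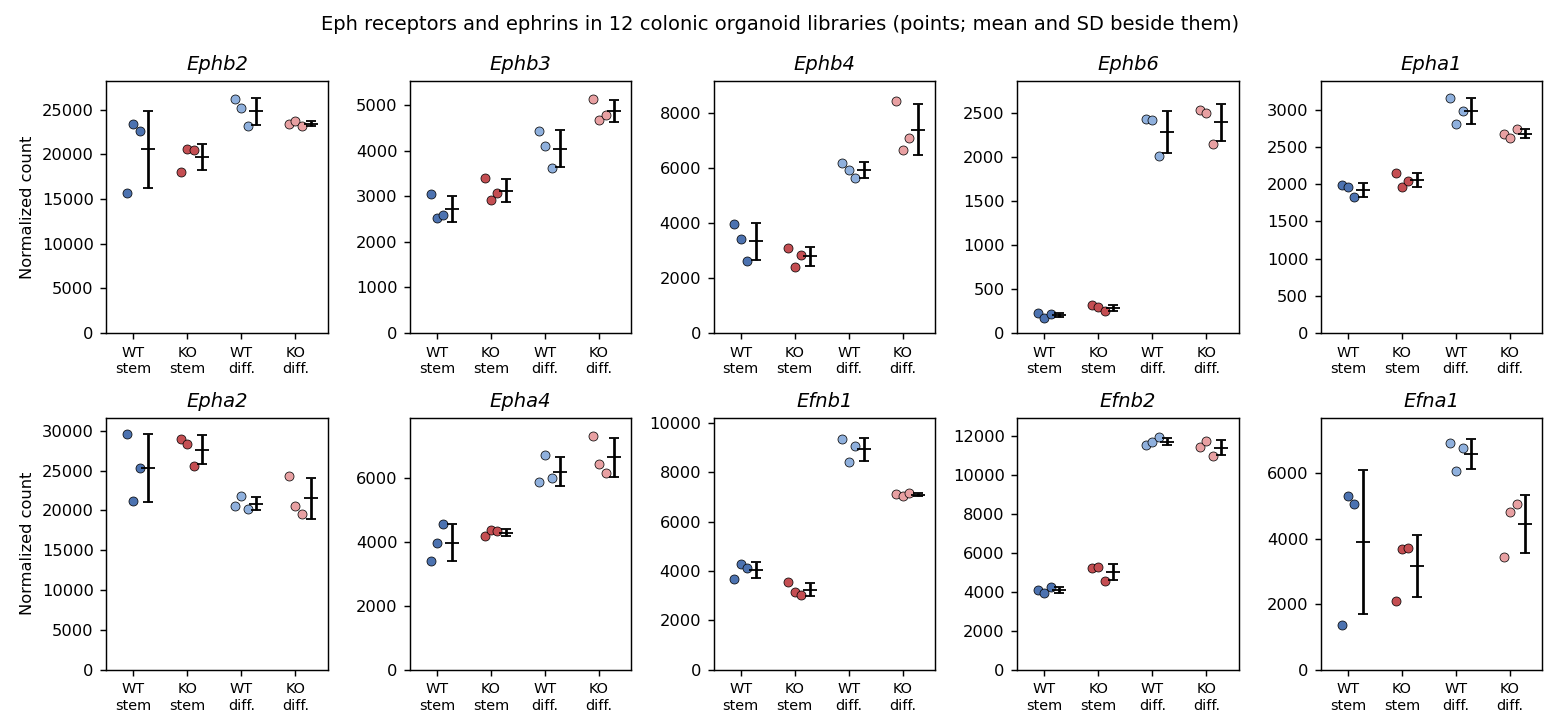
Normalized counts (y axis, linear, from 0) of the 10 genes in the 12 libraries, 1 panel per gene; points are libraries of WT stem, KO stem, WT differentiated and KO differentiated organoids, and the bar beside them is the mean with its SD (n = 3). Ephb6 goes from at most 316 in the stem libraries to at least 2008 in the differentiated ones, and WT stem library 1 is the lowest point of Ephb2 and Efna1.

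Of the EphA receptors, Epha1 and Epha4 rose in the differentiated condition and Epha2 was lower there. Epha2 (ENSMUSG00000006445, chr4:141301240-141329384) encodes the main epithelial receptor of ephrin-A1. It stood at 29599, 21140 and 25302 in WT stem, 29001, 28326 and 25607 in KO stem, 20538, 21767 and 20218 in WT differentiated, and 24381, 20549 and 19568 in KO differentiated. In KO the stem libraries lay wholly above the differentiated ones, while in WT the groups overlapped. Epha2 fell by 0.37 ± 0.12 in KO (1.29-fold lower, adjusted p = 0.0147), a call lost without KO differentiated library 3 (-0.30, adjusted p = 0.0605). In WT the change of -0.27 ± 0.12 missed the threshold in limma (adjusted p = 0.0543) and passed it in edgeR (-0.30, adjusted p = 0.036) and DESeq2 (-0.28, adjusted p = 0.0352), while without WT stem library 1 it was -0.15 (adjusted p = 0.212). Between genotypes Epha2 differed by 0.14 ± 0.12 (adjusted p = 0.496) in stem and 0.04 ± 0.12 (adjusted p = 0.828) in differentiated organoids.

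Epha1 (ENSMUSG00000029859, chr6:42358487-42373268), another receptor of A ephrins found in epithelia, stood at 1994, 1958 and 1821 in WT stem, 2153, 1958 and 2047 in KO stem, 3157, 2813 and 2980 in WT differentiated, and 2672, 2623 and 2738 in KO differentiated. It rose by 0.63 ± 0.06 in WT (1.55-fold, adjusted p = 2.60e-06) and by 0.38 ± 0.06 in KO (1.30-fold, adjusted p = 1.87e-04). The responses differed by -0.25 ± 0.09 (adjusted p = 0.0977), and the KO differentiated libraries all lay below the WT ones (-0.15 ± 0.06, adjusted p = 0.085), so neither difference passed in limma. DESeq2 called the first (adjusted p = 0.0486). The exons of Epha1 overlap those of Zyx on the other strand, which had a mean of 5346 normalized counts. Since the use of strand in the counting is not given in the sources used here, reads of the 2 genes cannot be told apart and the Epha1 values are uncertain.

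Epha4 (ENSMUSG00000026235, chr1:77367185-77515088) encodes a receptor that binds ephrins of both classes. It stood at 3412, 3973 and 4554 in WT stem, 4174, 4368 and 4330 in KO stem, 5891, 6715 and 5985 in WT differentiated, and 7316, 6453 and 6161 in KO differentiated. The conditions did not overlap in either genotype, while the genotypes overlapped in both conditions. Epha4 rose by 0.65 ± 0.10 in WT (1.56-fold, adjusted p = 1.11e-04) and by 0.63 ± 0.10 in KO (1.55-fold, adjusted p = 1.70e-04).

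Both B ephrins rose in both genotypes, in WT by a larger log2 change than any receptor but Ephb6, and in the stem condition Efnb1 was lower and Efnb2 higher in KO. Efnb1 (ENSMUSG00000031217, chrX:99136130-99148991) encodes the B ephrin that binds EphB2 and EphB3. It stood at 3675, 4292 and 4125 in WT stem, 3535, 3163 and 3033 in KO stem, 9332, 8426 and 9063 in WT differentiated, and 7130, 7025 and 7150 in KO differentiated. In each condition every KO library lay below every WT library, and in each genotype every differentiated library lay above every stem library. Efnb1 rose by 1.15 ± 0.07 in WT (2.22-fold, adjusted p = 7.35e-08) and by 1.13 ± 0.07 in KO (2.19-fold, adjusted p = 1.35e-07). It was 1.24-fold lower in KO in the stem condition (-0.31 ± 0.07, adjusted p = 0.0285) and 1.26-fold lower in the differentiated condition (-0.33 ± 0.07, adjusted p = 0.00805). The difference between the genotype effects was -0.02 ± 0.10 (adjusted p = 0.932). The stem call of Efnb1 was lost without WT stem 2 or 3 or KO stem 2 or 3 (adjusted p from 0.0706 to 0.103), and in edgeR (-0.27, adjusted p = 0.0723). It was also lost under quantile normalization (-0.28, adjusted p = 0.0529) and with only the groups compared (adjusted p = 0.134). The differentiated call held on leaving out each of the 12 libraries and was lost under quantile normalization (-0.22, adjusted p = 0.0521). The Efnb1 promoter printed among the sequences holds 1 GCGTG.

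Efnb2 (ENSMUSG00000001300, chr8:8617434-8661242) encodes the ligand of EphB4 and of EphB2. It stood at 4118, 3949 and 4238 in WT stem, 5221, 5293 and 4554 in KO stem, 11549, 11682 and 11925 in WT differentiated, and 11459, 11737 and 10972 in KO differentiated. The KO stem libraries all lay above the WT stem libraries, and the differentiated groups overlapped. Efnb2 rose by 1.51 ± 0.06 in WT (2.86-fold, adjusted p = 2.58e-09) and by 1.18 ± 0.06 in KO (2.27-fold, adjusted p = 2.76e-08). In the stem condition it was 1.22-fold higher in KO (0.29 ± 0.06, adjusted p = 0.0202), a call lost without WT stem 2 or KO stem 1 or 2 (adjusted p from 0.0707 to 0.0893). That call was lost as well with only the groups compared (adjusted p = 0.117). The smaller response in KO passed the test of the difference itself (-0.33 ± 0.09, adjusted p = 0.0414), and that call was lost in 9 of the 12 repeats that left out 1 library each, with adjusted p up to 0.103.

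Efna1 (ENSMUSG00000027954, chr3:89271733-89281142), the main ligand of EphA2, stood at 1369, 5299 and 5055 in WT stem, 2087, 3683 and 3731 in KO stem, 6922, 6063 and 6766 in WT differentiated, and 3429, 4817 and 5067 in KO differentiated. WT stem library 1 lay far below the other libraries of its group, and library 1 was the lowest in 3 of the 4 groups. None of the comparisons of Efna1 passed the test over all 12 libraries. The change with differentiation was 0.98 ± 0.43 in WT (adjusted p = 0.0589) and 0.52 ± 0.43 in KO (adjusted p = 0.310). KO against WT was -0.12 ± 0.43 (adjusted p = 0.895) in the stem and -0.59 ± 0.43 (adjusted p = 0.333) in the differentiated condition, where all 3 KO libraries lay below the WT libraries. Without WT stem library 1, Efna1 was lower in KO by -0.76 in the stem condition (adjusted p = 0.0676) and by -0.59 in the differentiated condition (adjusted p = 0.048), the WT change was 0.34 (adjusted p = 0.208) and the KO change of 0.52 passed (adjusted p = 0.0462).

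Counted over the family, 7 of the 10 genes rose, none fell and 3 did not pass in WT on differentiation, and 7 rose, 1 fell and 2 did not pass in KO. Over all genes tested, 36.3% rose and 35.9% fell in WT, and 34.1% rose and 33.6% fell in KO. The median log2 change of the members was 0.75 in WT and 0.63 in KO, against 0.01 over all genes tested in each genotype. The 7 that rose were Ephb3, Ephb4, Ephb6, Epha1, Epha4, Efnb1 and Efnb2 in both genotypes. For the count of none lower in WT, 1 member was lower at an unadjusted p under 0.05 in limma, and edgeR and DESeq2 each called 1 lower, Epha2. Without WT stem library 1 the counts were 7 higher and none lower in WT, and 9 higher and 1 lower in KO. In bulk RNA, fewer cells of a type and less RNA per cell cannot be told apart. The 7 markers of absorptive colonocytes summed to 396 to 645 in WT stem, 65.2 to 94.7 in KO stem, 88558 to 141195 in WT differentiated and 13917 to 40322 in KO differentiated. The part of these markers' cells in the members' changes was not tested.

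In the stem condition 2 members were higher in KO (Ephb6 and Efnb2), 1 was lower (Efnb1) and 7 did not pass, against 3.48% of all genes tested that were higher and 3.09% that were lower. The split over all genes in that comparison depended on the tool, with 517 genes higher and 459 lower in limma, 635 and 308 in edgeR, and 840 and 1144 in DESeq2, where edgeR called 2 members higher and none lower and DESeq2 2 higher and 1 lower. In the differentiated condition 1 member was lower in KO (Efnb1), none was higher and 9 did not pass, against 13.8% of all genes higher and 13.9% lower. In limma 1 member was higher at an unadjusted p under 0.05, and edgeR and DESeq2 each called 1 higher, Ephb3. The median difference of the members was 0.11 in the stem and -0.00 in the differentiated condition, against -0.04 and 0.02 over all genes tested. For the difference of the responses, 1 member was lower (Efnb2) and none was higher, against 5.12% of all genes higher and 3.58% lower. At an unadjusted p under 0.05 in limma, 1 member was higher and 3 were lower. By the adjusted p, edgeR called none higher and 1 lower, and DESeq2 called 1 higher (Ephb4) and 2 lower (Efnb2 and Epha1). Over all genes tested edgeR called 674 higher and 546 lower there, and DESeq2 1498 and 944. These comparisons share groups, so their values are set side by side and not counted against each other.

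**Figure D2:**
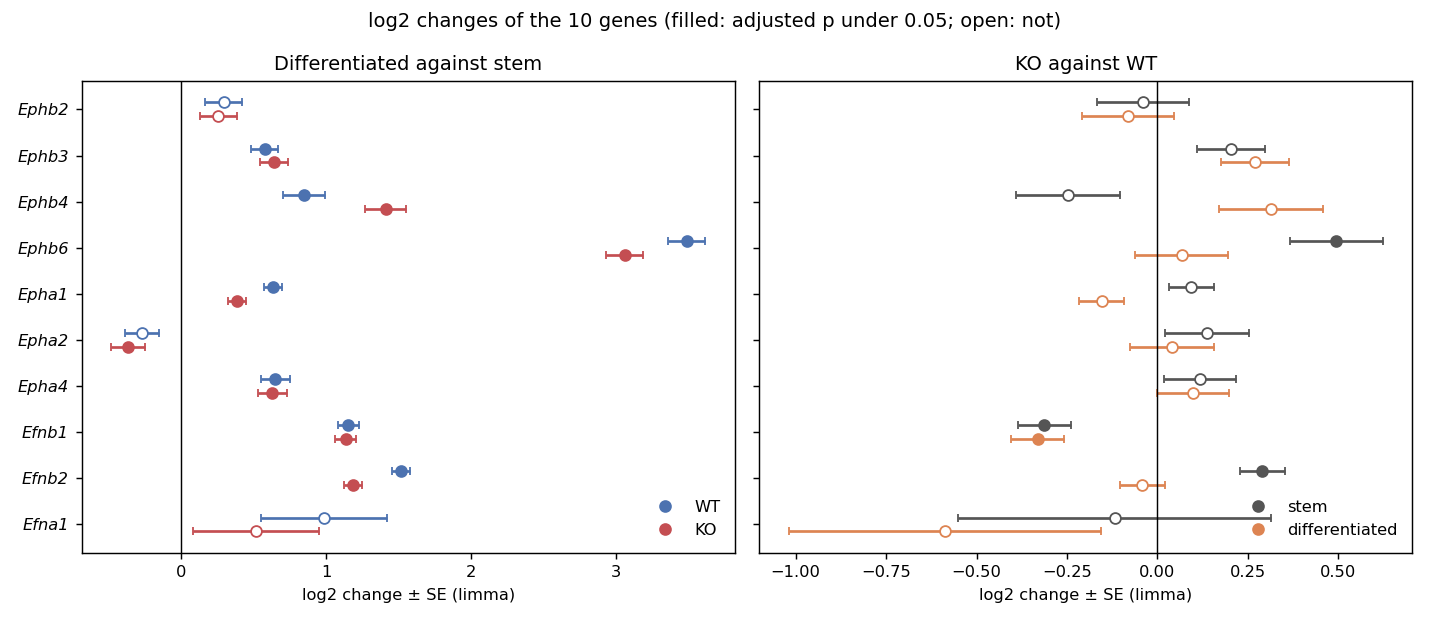
log2 changes with their SE (x axis) of the 10 genes from limma over 12 libraries: on the left differentiated against stem within WT and within KO, on the right KO against WT within the stem and the differentiated condition; filled points passed an adjusted p under 0.05. Efnb1 is the gene with filled points in both conditions on the right, at -0.31 and -0.33, and Efna1 has the widest error, 0.43.

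Levels between genes were compared per kb of exon. Epha2 was the highest member in all 4 groups, with means of 5423 normalized counts per kb in WT stem, 5914 in KO stem, 4459 in WT differentiated and 4600 in KO differentiated, and its range overlapped that of no other member in any group. Efna1 came next in each group by its mean. In both stem groups its range overlapped that of Ephb2 (means 2135 and 1630 per kb in WT, 1730 and 1562 in KO). In WT stem its range of 748 to 2896 also overlapped those of Efnb1 and Ephb4. In KO differentiated it overlapped that of Efnb1 (means 2425 and 2057) and, narrowly, that of Ephb2 (1874 to 2769 and 1842 to 1881). Ephb6 was last in each group, from 54.0 per kb in WT stem to 634 in KO differentiated, and in the differentiated condition its range overlapped that of Ephb3 in WT and that of Epha1 in KO. Ephb2 and Efnb1 stood in opposite order in the 2 conditions: in WT stem Ephb2 stood at 1630 and Efnb1 at 1168 per kb, with ranges that touched through WT stem library 1 (1241 to 1856 and 1065 to 1243), and in WT differentiated Efnb1 stood at 2590 and Ephb2 at 1969 without overlap. Epha4 and Epha1 overlapped in WT stem, KO stem and WT differentiated.

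Epha2 made up 57.1% of the summed level per kb of the 14 Eph receptor genes in WT stem and 60.1% in KO stem, and 42.6% in WT differentiated and 41.9% in KO differentiated. Ephb2 lay between 15.9% and 18.8% in all 4 groups. Without WT stem library 1 the WT stem shares were 54.2% for Epha2 and 20.0% for Ephb2. Ephb4 went from 7.61% to 12.2% in WT and from 6.11% to 14.5% in KO, and Ephb6 from 0.570% to 5.77% in WT and from 0.772% to 5.80% in KO. Among the 8 ephrin genes Efna1 had the largest mean share in every group, between 29.6% in KO differentiated and 38.5% in WT differentiated over all libraries. In WT stem it was 34.1%, made of 15.5% in library 1, where Efna3 stood at 28.6%, and a mean of 43.4% in the other 2. Efnb1 went from 19.8% to 27.7% of the ephrin sum in WT and from 16.9% to 25.2% in KO, and Efnb2 from 10.3% to 18.3% and from 13.1% to 20.4%. Shares are tied to each other, so that a rise of 1 gene lowers those of the others, and they were not tested.

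**Figure D3:**
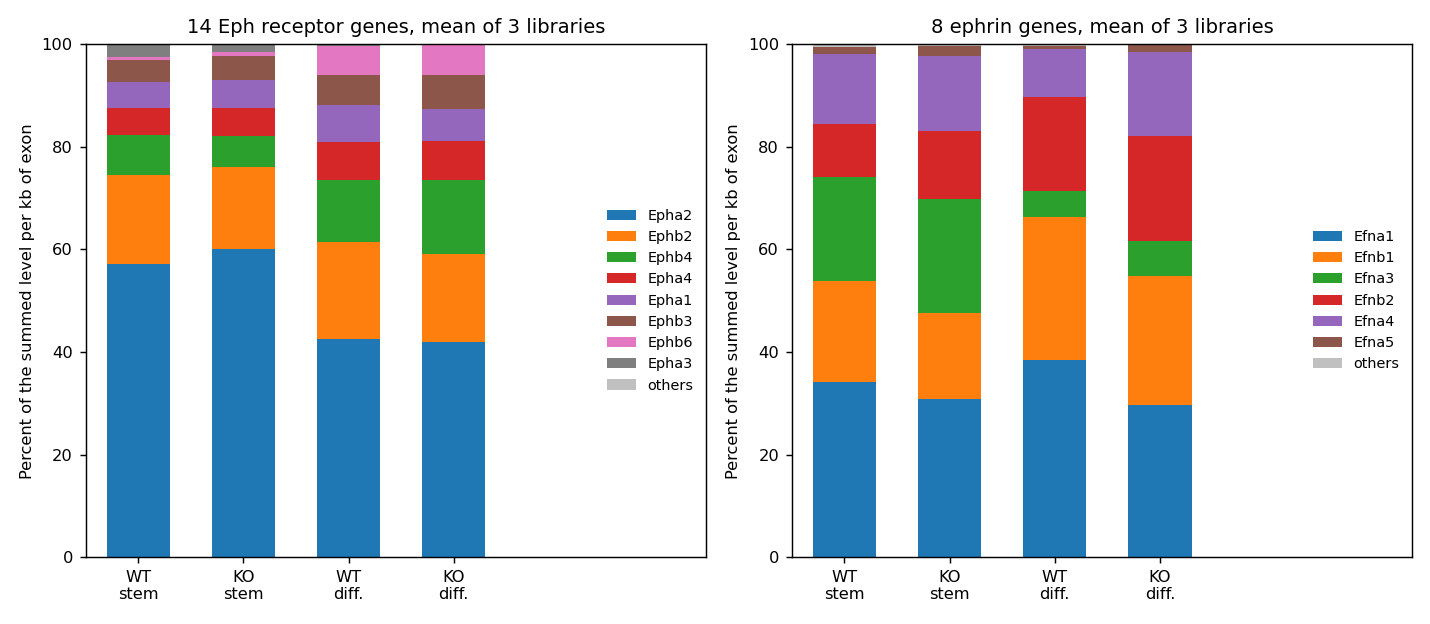
Share of each gene (y axis, percent) in the summed level per kb of exon of the 14 Eph receptor genes (left) and the 8 ephrin genes (right), as the mean of the 3 libraries of each group; genes below the named ones are pooled as others. Epha2 takes 57.1% of the receptor sum in WT stem and 42.6% in WT differentiated, and Efna3 takes 20.2% of the ephrin sum in WT stem and 5.07% in WT differentiated.

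The ratio of EphB receptors to their ligands was lower in the differentiated than in the stem libraries. The ratio of Ephb2 to Efnb1 per kb was 1.39 ± 0.19 (SD, n = 3) in WT stem, 1.68 ± 0.24 in KO stem, 0.761 ± 0.058 in WT differentiated and 0.904 ± 0.018 in KO differentiated. Every stem library was above 1, the lowest at 1.17, and every differentiated library below 1, the highest at 0.924. In the differentiated condition the KO libraries (0.890 to 0.924) all lay above the WT libraries (0.700 to 0.817), while in the stem condition the genotypes overlapped. The ratio of Ephb2 to Efnb2 was 2.73 ± 0.60 in stem and 1.15 ± 0.09 in differentiated WT organoids, and 2.15 ± 0.28 and 1.12 ± 0.03 in KO. In WT stem library 1 it was 2.07. Without that library the WT stem mean was 3.06, and its range of 2.90 to 3.22 lay above the KO stem range of 1.88 to 2.44. Summed over the class, EphB to ephrin-B was 1.59 ± 0.06 in WT stem, 1.62 ± 0.15 in KO stem, 1.04 ± 0.08 in WT differentiated and 1.29 ± 0.06 in KO differentiated, without overlap between the conditions or between the differentiated genotypes. EphA to ephrin-A overlapped between the conditions in WT (1.21 to 2.36 in stem, with library 1 the highest, and 1.13 to 1.33 in differentiated) and did not in KO (1.63 to 2.08 and 1.22 to 1.61). Without WT stem library 1 the WT stem mean of that ratio was 1.33, in place of 1.67. These ratios describe RNA levels and were given no test.

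**Figure D4:**
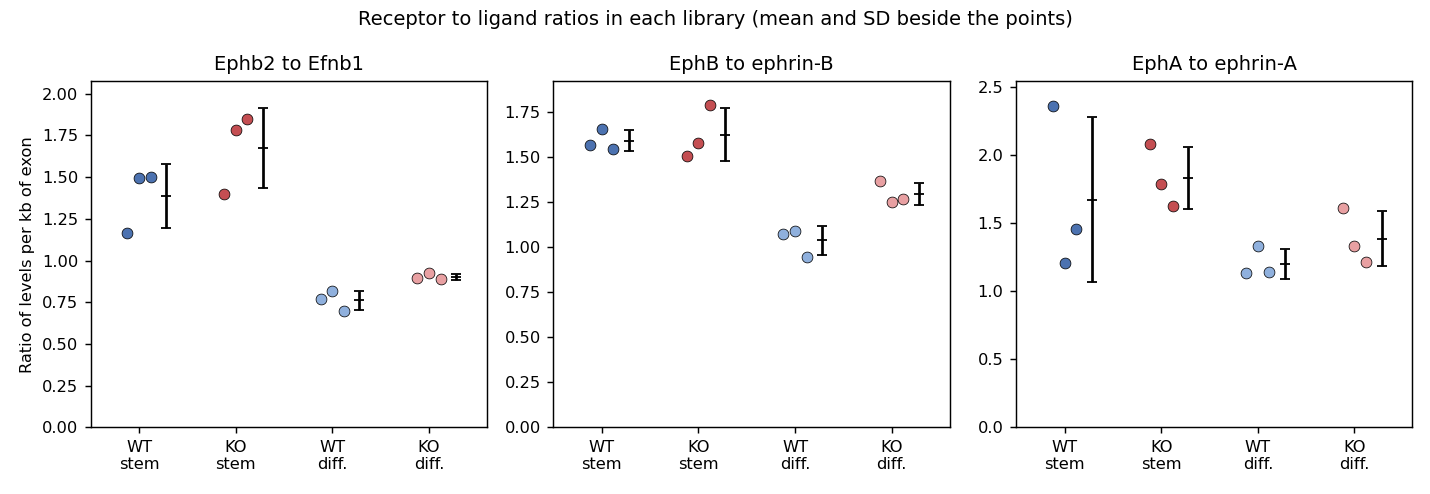
Ratios of receptor to ligand levels per kb of exon (y axis, from 0) in each of the 12 libraries, for Ephb2 to Efnb1, for all EphB to all ephrin-B genes and for all EphA to all ephrin-A genes; bars beside the points are the mean and SD of 3 libraries. The stem libraries lie at 1.17 to 1.85 for Ephb2 to Efnb1 and the differentiated libraries at 0.700 to 0.924.

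The other 12 Eph and ephrin genes were followed in the same fit. Epha5, Epha6, Epha7, Epha8, Epha10 and Ephb1 did not pass the filter: their highest values were 5.45, 0.734, 14.3, 2.94, 0 and 2.69 normalized counts, and Epha10 had no read in the 12 libraries. Of the 6 tested, none rose and 3 fell with differentiation in WT, and 1 rose and 3 fell in KO. The shares of all genes tested were 36.3% higher and 35.9% lower in WT, and 34.1% and 33.6% in KO. In WT no gene of these 6 was higher at an unadjusted p under 0.05, and edgeR and DESeq2 called none higher. Epha3, a receptor of A ephrins, stood at 1352, 2327 and 2270 in WT stem and 196, 243 and 357 in WT differentiated, and at 1701, 1159 and 1072 in KO stem and 199, 93.0 and 164 in KO differentiated. It fell in both genotypes, by 2.90 ± 0.32 in WT (7.48-fold lower, adjusted p = 6.97e-06) and by 3.14 ± 0.32 in KO (adjusted p = 4.97e-06). Efna3, an A ephrin, fell as well, from 3357, 2461 and 2591 to 1157, 1053 and 1247 in WT (-1.27 ± 0.12, adjusted p = 2.11e-06) and from 3400, 2783 and 2837 to 1376, 1265 and 1461 in KO (-1.13 ± 0.12, adjusted p = 7.63e-06).

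Between genotypes none of the 6 passed in the stem condition, beside 3.48% of all genes tested higher and 3.09% lower in KO. In the differentiated condition 2 were higher and 1 was lower in KO, beside 13.8% and 13.9%. In the stem condition 1 was higher at an unadjusted p under 0.05, edgeR called none and DESeq2 called 1. Efna5, an A ephrin, stood at 254, 220 and 252 in WT differentiated and 482, 451 and 393 in KO differentiated, 1.83-fold higher (0.87 ± 0.12, adjusted p = 9.76e-04), and this call held under every alternative run. Efna4 stood at 1473, 1375 and 1365 in WT and 2672, 1818 and 1892 in KO (0.58 ± 0.15, adjusted p = 0.0162), a call lost without WT differentiated 3 (adjusted p = 0.0585) or KO differentiated 1 (0.40, adjusted p = 0.0511). Efna2, a low gene, stood at 45.0, 54.9 and 59.1 in WT and 35.8, 31.0 and 28.6 in KO (-0.72 ± 0.20, adjusted p = 0.022), a call lost in 5 of 23 alternatives. Efna5 also fell in WT with differentiation (-0.44 ± 0.12, adjusted p = 0.00586) and Efna4 rose in KO (0.69 ± 0.15, adjusted p = 0.00158), where Efna2 fell (-0.50 ± 0.20, adjusted p = 0.0415, lost in 10 of 24 alternatives). Efnb3, the remaining B ephrin, lay between 8.86 and 20.4 in all libraries and passed in no comparison. For the difference of the responses none of the 6 passed in limma or edgeR, 2 were higher at an unadjusted p under 0.05, and DESeq2 called 1. In limma 5.12% of all genes tested were higher and 3.58% lower there.

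The proteins that carry the signal of Ephs and ephrins into the cell were taken as a list of 41 genes, all tested. With differentiation 28 rose and 4 fell in WT, and 19 rose and 5 fell in KO, with medians of 0.29 and 0.16. Of all genes tested 36.3% rose and 35.9% fell in WT, and 34.1% rose and 33.6% fell in KO. Kalrn, an exchange factor for small GTPases that acts after EphB receptors, rose from 456, 679 and 669 to 3127, 2603 and 3012 in WT (2.29 ± 0.17, adjusted p = 3.08e-07) and from 394, 447 and 361 to 1355, 1902 and 1935 in KO (2.09 ± 0.17, adjusted p = 9.46e-07). Tiam1, an exchange factor for Rac, fell from 4120, 4058 and 3515 to 752, 901 and 797 in WT (-2.25 ± 0.10, adjusted p = 3.44e-09) and from 3490, 3126 and 3792 to 1174, 1068 and 1209 in KO (-1.59 ± 0.10, adjusted p = 8.21e-08). Fyn, a Src family kinase, fell to 2.27 to 4.58 in WT and 5.33 to 10.2 in KO from 40.4 to 196 and 49.6 to 84.5, with the highest value in WT stem library 1 (adjusted p = 1.60e-05 in WT and 1.73e-04 in KO). The WT fall of Fyn passed in all 24 alternatives, among them the fit without that library. Grip1, a scaffold protein that binds B ephrins, was at 5.54 or less in all 6 stem libraries and rose to 15.9 to 48.8 in WT and 42.3 to 120 in KO differentiated libraries (adjusted p = 0.00139 in WT and 2.37e-05 in KO).

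Between genotypes 1 of the 41 was higher and 1 lower in KO in the stem condition, beside 3.48% and 3.09% of all genes tested. In the differentiated condition 2 were higher and 11 lower, with a median of -0.15. In limma 13.8% of all genes tested were higher there and 13.9% lower. Among the 41, edgeR called 3 higher and 8 lower, beside 2301 and 1791 of all 14856 genes. DESeq2 called 3 higher and 16 lower, beside 2346 and 2427 of all genes. The adaptor Sh2d3c stood at 189 to 199 in WT stem and 249 to 256 in KO stem (0.38 ± 0.09, adjusted p = 0.0263), and the scaffold Itsn1 at 1710 to 1852 and 1432 to 1557 (-0.23 ± 0.06, adjusted p = 0.0375). The Sh2d3c call was lost in 7 and the Itsn1 call in 14 of 24 alternatives. In the differentiated condition Kalrn was lower in KO (-0.77 ± 0.17, adjusted p = 0.00916), as were Pak1, a kinase activated by Rac (-0.34 ± 0.11, adjusted p = 0.0432, lost in 12 of 24 alternatives), and Rac1 (-0.29 ± 0.05, adjusted p = 0.00294), while Tiam1 was higher (0.50 ± 0.10, adjusted p = 0.00457). The difference of the responses passed in limma for 3 of the 41, Tiam1 (0.66), Stat3 (-0.37) and Rac1 (-0.31). Of all genes tested 5.12% were higher and 3.58% lower by that test. Among the 41, edgeR called 1 higher and 2 lower, beside 674 and 546 of all 14856 genes. DESeq2 called 2 higher and 7 lower, beside 1498 and 944 of all genes.

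The 15 Wnt target genes of the crypt base were set beside Ephb2 and Ephb3, which are known as Wnt targets too. On differentiation 1 of the 15 rose and 12 fell in WT, with a median of -1.38, beside 36.3% and 35.9% of all genes tested. In KO 3 rose and 9 fell, with a median of -0.64, beside 34.1% and 33.6%. Ephb3, by contrast, rose in both genotypes. Ephb2 passed in neither in limma without a block over all 12 libraries, though its KO groups did not overlap. The first 3 genes of the list show the levels. Axin2 stood at 5470, 7705 and 7161 in WT stem and 2273, 2071 and 1972 in WT differentiated. Lgr5 stood at 2530, 7490 and 6013 in WT stem, where library 1 was again the lowest, and at 1832, 1940 and 1833 in WT differentiated. Ascl2 fell by 3.75 ± 0.18 in WT (adjusted p = 8.42e-09) and by 1.97 ± 0.18 in KO (adjusted p = 2.03e-06). In the differentiated condition 11 of the 15 were higher in KO and none was lower, beside 13.8% and 13.9% of all genes tested. None of the 15 was lower in edgeR, in DESeq2 or at an unadjusted p under 0.05. Among the 11, Axin2 was higher by 0.70 ± 0.13 (adjusted p = 0.00422), beside 0.27 for Ephb3 and -0.08 for Ephb2, which did not pass. In the stem condition 1 of the 15 was higher and 1 lower in KO, beside 3.48% and 3.09% of all genes tested. For the difference of the responses 4 of the 15 were higher and none was lower, beside 5.12% and 3.58%. There edgeR called 3 higher and DESeq2 6, and both called none lower. Ascl2 (1.78, adjusted p = 0.00976) passed that test in all 24 alternatives. The call of Axin2 (0.69, adjusted p = 0.0466) was lost in 16 of 24. The part of Wnt activity in the members' levels was not tested.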

How the data were processed

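Total RNA of 12 libraries was analysed from 1 table. The deposited normalized counts are a signal per gene that the authors made from gene counts; the submitters' processing notes name GRCm38, Bowtie2, RSEM 1.2.11 and DESeq2 1.18.1 without their roles. The annotation and the use of strand are not given in the sources used here. Within a library all values were multiples of the worth of 1 read (0.539 to 2.27), 100% of them within 0.05 of a whole read, and dividing by it gave the reads. Of the 48795 genes, 22677 were at 0 in all libraries. Symbols and positions came from GENCODE vM21, which matched 99.1% of the identifiers.

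Groups came from the sample titles. The 14856 genes that reached 10 in 3 or more libraries were log2-transformed with a pseudocount of 1, so that log2 changes of low genes are understated. On these values limma 3.58.1 (R 4.3.3) fitted the mean of each of the 4 groups, with its trend option. Tests were two-sided, and p-values were Benjamini-Hochberg adjusted over all genes tested. Fold changes in the text are ratios of group means. Levels per kb used the exon length of the annotation. The scripts were tested on simulated data.

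The members and lists were chosen with earlier results of these data known. All 10 members and the other 12 family genes were named whatever their values, of the signalling proteins at most the 4 largest called changes per comparison, and at most 3 Wnt targets. Promoter windows came from RefSeq (GRCm38.p6).

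Replicate numbers were checked for pairing from the correlation of deviations from the group means. It was 0.286, 0.191 and 0.256 between KO stem and KO differentiated libraries of the same number, so these were taken as paired. The changes, SE and p-values in the text nevertheless come from the fit without a block, except where another fit is named. A replicate block changed no member's call between the KO groups. The other pairs of groups did not reach 0.1 for each number. Alternatives were pseudocounts of 0.5 and 5, no filter, a mean of at least 50, edgeR 4.0.16 and DESeq2 1.42.0 on recovered reads, quantile normalization, size factors computed anew, a robust variance prior, fits of only the groups compared, replicate blocks and leaving out each library.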

Additional observations from a re-analysis of the deposited data

Results flagged for a closer look

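Flags were set among the family genes and the named signalling proteins. 4 of these genes were flagged because their response to differentiation differed between the genotypes, by the test of the difference itself in limma. The Wnt target genes were not part of this rule, and 4 of the 15 passed the same test. The KO response minus the WT response was -0.33 for Efnb2 (-0.331, adjusted p = 0.0414), -0.31 for Rac1 (-0.313, adjusted p = 0.0264), 0.66 for Tiam1 (0.665, adjusted p = 0.019) and -0.37 for Stat3 (-0.371, adjusted p = 0.0289). In both genotypes every differentiated library lay above every stem library for Efnb2 and below every stem library for Tiam1. Rac1 stood at 26192 to 26346 in WT stem, 25658 to 27336 in KO stem, 30526 to 31438 in WT differentiated and 24467 to 26641 in KO differentiated, and Stat3 stood at 5623 to 6547 in WT stem, 6715 to 6817 in KO stem, 8844 to 9359 in WT differentiated and 7353 to 8112 in KO differentiated. The call was lost in 11 of 24 alternatives for Efnb2, 6 of 24 for Rac1, 9 of 24 for Stat3 and 1 of 24 for Tiam1. No formal rule for outliers was applied to groups of 3 libraries, and WT stem library 1 was set apart by its marker values alone.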

How the results depend on the processing

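Over the 10 members and 5 comparisons (50 results), 1118 of 1220 repeats kept direction and side of the threshold, 34 lost and 37 gained a call, and 31 changed sign, none of them for a called result. Of the 20 called results 14 held in all repeats. The counts of 7 called members in WT and 8 in KO on differentiation stayed within 1.5 times, from 7 to 10 on leaving out each library. The 3 calls of KO against WT in the stem condition became 0 with only the groups compared, and 0 to 3 on leaving out each library. The 1 call in the differentiated condition became 3 with only the groups compared, 3 with the replicate block, 3 without WT stem 1 and KO stem 3 together (chosen after seeing the data), 2 in edgeR, 2 in DESeq2, and 1 to 3 on leaving out each library. The 1 call for the difference of the responses became 0 with no filter, 0 under quantile normalization, 2 with the replicate block, 2 with the replicate block within genotype, 3 in DESeq2, and 0 to 2 on leaving out each library. The cause of these moves was not tested.

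Under quantile normalization the sign changed for Ephb2 in the stem (0.037) and differentiated (0.085) condition and for Efnb2 in the differentiated condition (0.069), and for the difference of the responses of Ephb2 (0.047), Epha2 (0.028), Epha4 (0.033) and Efnb1 (0.056). Without WT stem 1 and KO stem 3 together that difference was 0.17 for Ephb2, -0.034 for Ephb3, 0.093 for Epha4, 0.00038 for Efnb1 and 0.31 for Efna1. On leaving out each library KO against WT ranged in the stem condition from -0.23 to 0.064 for Ephb2 and -0.76 to 0.22 for Efna1, and in the differentiated condition from -0.023 to 0.14 for Ephb6 and -0.055 to 0.10 for Epha2. The difference of the responses ranged from -0.14 to 0.15 for Ephb2, -0.020 to 0.13 for Ephb3, -0.22 to 0.027 for Epha2, -0.12 to 0.087 for Epha4, -0.065 to 0.047 for Efnb1 and -0.81 to 0.17 for Efna1. WT stem and differentiated libraries shared only a number (correlations 0.107, 0.0552 and 0.145, each library matching its own number best), and the replicate block raised the WT count from 7 to 10. The members rested on at least 138 reads in each library.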

Other observations

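As a description over the 12 libraries, the genes most like Ephb2 by the Pearson correlation of log2 normalized counts, among 11557 protein-coding genes with a mean of at least 50, were Vamp1 (0.978), Map3k1 (0.969), Fbxo38 (0.967) and R3hdm2 (0.961). Those most like Efna1 were Map3k1 (0.985), Kdm3a (0.982), Slc37a1 (0.980) and Cidec (0.979). Ephb2 and Efna1 both had their lowest value in WT stem library 1. The part of that library and of the difference between conditions in these correlations was not tested, and no p is given.

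The goblet cell markers summed to 3654 to 4249 in WT stem, 3102 to 4181 in KO stem, 14031 to 19136 in WT differentiated and 7278 to 19385 in KO differentiated, and the markers of enteroendocrine cells to 25.4 to 76.6, 17.2 to 22.4, 530 to 985 and 162 to 497. The stem and crypt base markers summed to 32943 to 37356 in WT stem, 32645 to 33482 in KO stem, 26600 to 29676 in WT differentiated and 41627 to 56497 in KO differentiated. In KO the mean of Cd44 was 14049 in stem and 31677 in differentiated organoids. Sox9, of the same list, rose in KO as well (0.53, adjusted p = 0.00218 in limma). The means of Lgr5, Axin2 and Ascl2 were lower in the KO differentiated organoids, but the change of Lgr5 did not pass (-0.56, adjusted p = 0.138). Smoc2 and Olfm4, also in that list, are not given singly here.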
